A study of Bos taurus with 3 samples.

Results

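The genes described here are 4 enzymes and 1 transporter that make or store melatonin and the catecholamines: AANAT, ASMT, TH, DDC and SLC18A2. They were taken by symbol from the deposited expression table of bovine retina, and all 5 were among its 13574 genes. The study sequenced poly(A) RNA of dissected retinas in 3 libraries that form 1 group, with no treatment or genotype. The cattle were of mixed strain, the tissue was taken between 7 and 10 in the morning, and each library was prepared from pooled total RNA. The sources used here give neither the age nor the sex of the animals. No label says whether separate animals went into each library, so the SDs measure the spread among these libraries and may be partly technical. With 3 libraries in 1 group the smallest exact two-sided sign-flip p is 0.25, so no test over libraries was run and the values are a description.

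Melatonin is made from serotonin in a pair of steps: AANAT (aralkylamine N-acetyltransferase) acetylates serotonin, and ASMT (acetylserotonin O-methyltransferase) methylates the product. In the vertebrate retina this path belongs mainly to photoreceptors, while dopamine is made by a sparse class of amacrine cells and acts as a signal of light. In those cells TH (tyrosine hydroxylase) makes L-DOPA, DDC (aromatic L-amino acid decarboxylase) turns it into dopamine, and SLC18A2 (the vesicular monoamine transporter VMAT2) loads dopamine into vesicles. DDC also makes serotonin, and so serves both paths.

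The values are FPKM, reads scaled to gene length and to the reads of the library, and whole reads per gene could be recovered from them. The 3 libraries rested on 36656987, 39011741 and 49102477 reads. The label of the tissue was checked against photoreceptor markers: 10 of 11 rod markers and 9 of 9 cone markers were in the table, each with a mean of 1 FPKM or more, the level called detected here. The libraries were not alike in every respect. XIST, a transcript of the inactive X chromosome, is named because of its values. It had 3987 reads in library 1, 3 in library 2 and 3628 in library 3, which set library 2 apart. Library 2 was thus not made from the same pool of RNA as library 1 or library 3. The contrasts of library 2 with the others below cannot be told apart from that difference in source. No label says whether libraries 1 and 3 shared a pool, so their contrast may hold a difference in source too. Genes shorter than the median of 1901 bases deviated from their mean over libraries by a median of 0.15, 0.04 and -0.18 (log2) in libraries 1, 2 and 3, against 0.01, -0.04 and 0.03 for longer genes. In bulk tissue, fewer cells of a type and less RNA per cell cannot be told apart.

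AANAT was by far the most abundant of the 5 genes. Its level was 97.4 FPKM in library 1, 194 FPKM in library 2 and 121 FPKM in library 3, from 3138, 6642 and 5205 reads. The mean of 137 FPKM ± 50.3 (SD, n = 3) placed it at rank 347 of 13574 genes, above 97.4% of them. AANAT stood high in every library, above 95.8%, 98.3% and 97.5% of the genes of libraries 1, 2 and 3.

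ASMT, the enzyme that completes melatonin, was at the other end of the set. It had 0.468, 0.340 and 0.518 FPKM in libraries 1, 2 and 3, from 31, 24 and 46 reads. The mean was 0.442 FPKM ± 0.0917 (SD, n = 3), above 24.1% of the listed genes. In each library the reads were few but above the floor of 3 reads, which lay between 0.0338 and 0.0453 FPKM for a gene of this length. The exact 95% counting intervals were 0.318 to 0.664, 0.218 to 0.506 and 0.379 to 0.691 FPKM, and all 3 overlapped. ASMTL, a paralog with a domain related to ASMT, had 29.3 FPKM ± 5.43. The sources used here do not say how reads that match both genes were counted, so the low level of ASMT is uncertain to that extent.

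**Figure D1:**
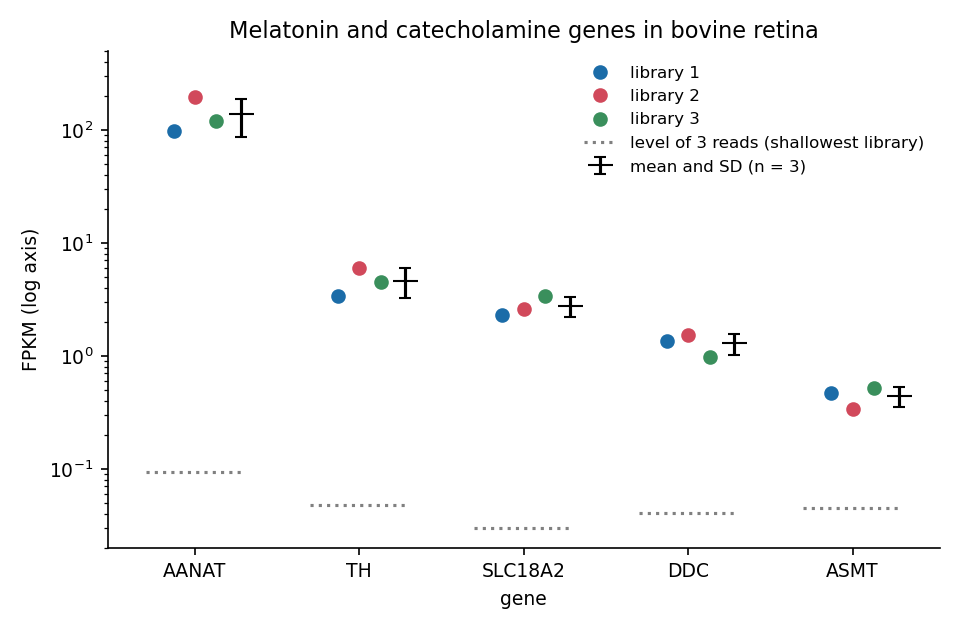
FPKM (log axis) of the 5 genes in libraries 1, 2 and 3 (coloured points), with the mean and SD of the 3 libraries (black) and the level of 3 reads in the shallowest library (dotted). AANAT lies between 97.4 and 194 FPKM, TH, SLC18A2 and DDC lie between 0.984 and 6.005 FPKM, and ASMT lies between 0.340 and 0.518 FPKM.

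The dopamine genes lay between these extremes. TH had 3.36, 6.005 and 4.46 FPKM in libraries 1, 2 and 3, from 209, 398 and 372 reads. Its mean of 4.61 FPKM ± 1.33 (SD, n = 3) was above 46.5% of the genes, close to the median gene of the table at 5.67 FPKM. TH was lowest in library 1 and highest in library 2, in the same order as AANAT.

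SLC18A2 had 2.28, 2.60 and 3.40 FPKM, from 227, 275 and 453 reads, with a mean of 2.76 FPKM ± 0.576 (SD, n = 3). It was highest in library 3, unlike TH. DDC had 1.36, 1.52 and 0.984 FPKM, from 101, 120 and 98 reads, with a mean of 1.29 FPKM ± 0.274 (SD, n = 3). DDC was lowest in library 3, the library in which SLC18A2 was highest. The means of SLC18A2 and DDC were above 39.1% and 31.3% of the listed genes. Of the 5 genes 4 were detected, all but ASMT, against 70.7% of all listed genes.

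**Figure D2:**
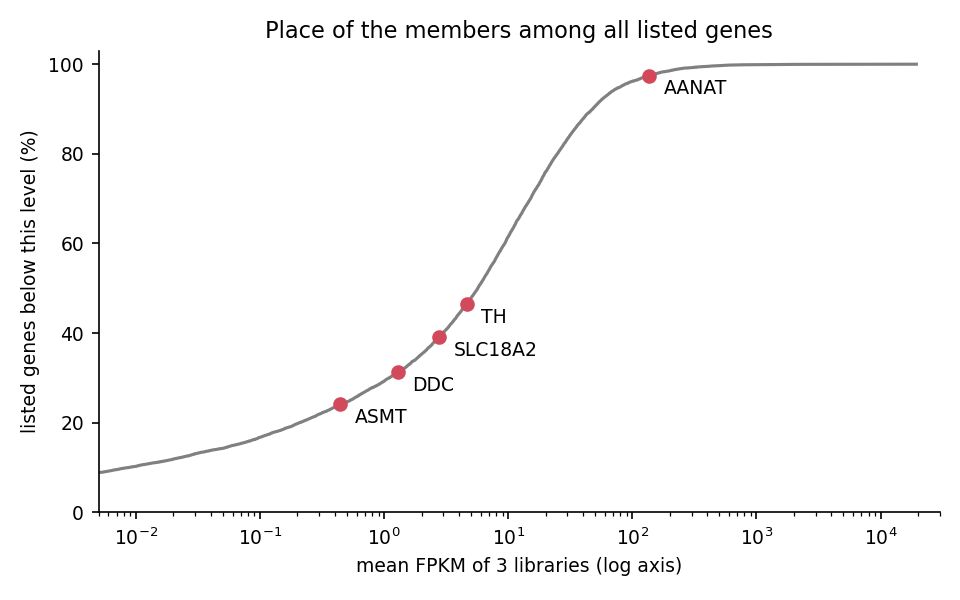
Share of the 13574 listed genes below a given mean FPKM (log axis, grey line), with the 5 genes marked in red. AANAT stands above 97.4% of genes, TH above 46.5%, SLC18A2 above 39.1%, DDC above 31.3% and ASMT above 24.1%.

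The order of the means was AANAT, TH, SLC18A2, DDC and ASMT, and it was the same within each of the 3 libraries. Between neighbours in that order, the ranges over libraries overlapped for TH and SLC18A2 alone. TH exceeded SLC18A2 by 1.47-fold, 2.31-fold and 1.31-fold in libraries 1, 2 and 3, a log2 ratio of FPKM of 0.72 ± 0.43 (SD, n = 3), although TH in library 1 was below SLC18A2 in library 3. SLC18A2 exceeded DDC by 1.68-fold, 1.71-fold and 3.46-fold (log2 1.10 ± 0.59), and DDC exceeded ASMT by 2.90-fold, 4.46-fold and 1.90-fold (log2 1.54 ± 0.62).

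Within the melatonin path the gap between the acetylating and the methylating enzyme was wide in every library. AANAT exceeded ASMT by 208-fold, 569-fold and 233-fold in libraries 1, 2 and 3, a log2 ratio of 8.24 ± 0.80 (SD, n = 3). The value in library 2 joined the highest AANAT to the lowest ASMT, and the latter rested on 24 reads. Within dopamine synthesis the gap was narrow: TH exceeded DDC by 2.47-fold, 3.96-fold and 4.53-fold (log2 1.82 ± 0.46).

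The ratio of AANAT to TH hardly differed between libraries. It was 29.0-fold, 32.3-fold and 27.0-fold in libraries 1, 2 and 3, a log2 ratio of 4.88 ± 0.13 (SD, n = 3). After the median deviation of genes of like length had been subtracted, the log2 ratio was 4.87 ± 0.12. It was the most even of the 6 ratios between members, and is singled out here for that. These figures describe 3 libraries, and points that share a library also share its depth and its mix of animals.

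**Figure D3:**
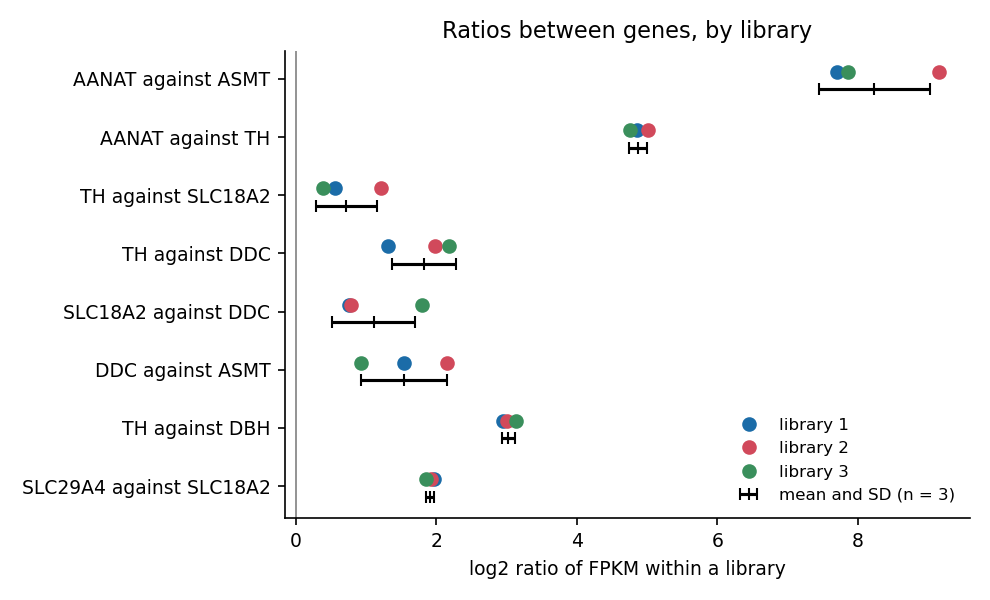
Log2 ratio of FPKM between pairs of genes within each library (coloured points), with the mean and SD of the 3 libraries (black). The ratio of AANAT to ASMT is the largest and spreads from 7.70 to 9.15, while AANAT to TH stays between 4.76 and 5.01.

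AANAT and TH were both highest in library 2 and lowest in library 1. AANAT was 1.99-fold higher in library 2 than in library 1 (95% exact interval of the ratio of reads 1.91 to 2.08) and 1.61-fold higher than in library 3 (1.55 to 1.67). TH was 1.79-fold higher in library 2 than in library 1 (1.51 to 2.13) and 1.35-fold higher than in library 3 (1.17 to 1.56). Few genes went this way: of 9599 detected genes, 2.52% were at least 1.5-fold higher in library 2 than in library 1, and 0.313% by at least as much as AANAT. The intervals compare these libraries, not conditions, and cover counting error only.

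The other 3 genes followed other orders. DDC was 1.54-fold higher in library 2 than in library 3 (1.17 to 2.03), where 4.66% of genes differed at least 1.5-fold in that direction, while its ratio of library 2 to library 1 was 1.12 with an interval of 0.850 to 1.47. SLC18A2 was 1.49-fold higher in library 3 than in library 1 (1.27 to 1.75). For ASMT all 3 intervals held 1; the widest difference was library 2 against library 3, at 0.657-fold with an interval of 0.383 to 1.10, so a difference was not detectable at this depth.

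Of the 4 detected members 3, AANAT, TH and DDC, were highest in library 2, against 29.0% of detected genes. The highest library was at least 1.5-fold above the lowest for 3 of the 4 detected members, AANAT, TH and DDC, against 27.8% of detected genes. With ASMT, at 1.52-fold on 24 to 46 reads, the count was 4 of 5, against 39.0% of all genes above 0. Without library 2 that count was 0, and without library 3 it was 2. The share of all genes was not computed with a library left out, so these counts have no background to be read against. For AANAT the SD of log2(FPKM + 1) over libraries was 0.50, larger than in 95.3% of 706 genes within 2-fold of its mean, whose median SD was 0.24. For TH it was 0.34, larger than in 84.8% of 3095 such genes. The SDs of DDC, SLC18A2 and ASMT, at 0.18, 0.22 and 0.09, were larger than in 55.3%, 61.6% and 37.8% of genes of like level.

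Gene length bears on the size of the differences of AANAT, which at 879 bases is the shortest of the 5. Genes of like length deviated by a median of 0.22, 0.09 and -0.32 (log2) in libraries 1, 2 and 3. With that deviation subtracted, the log2 ratio of library 2 to library 1 went from 0.99 to 1.12, that of library 2 to library 3 from 0.68 to 0.27, and that of library 3 to library 1 from 0.31 to 0.85. AANAT was highest in library 2 and lowest in library 1 either way, but library 3 then lay nearer to library 2. For TH, whose length is 1699 bases, the same ratios went from 0.84 to 0.95, from 0.43 to 0.32 and from 0.41 to 0.63.

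**Figure D4:**
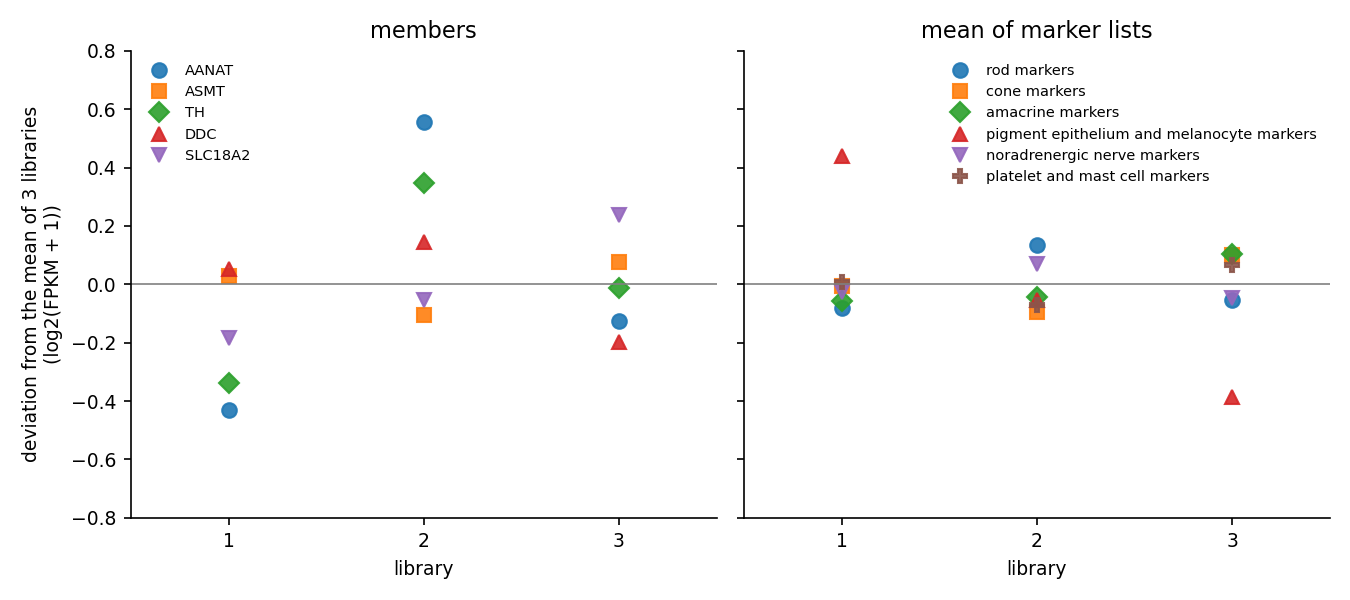
Deviation of log2(FPKM + 1) from the mean of the 3 libraries, for the 5 genes (left) and for the mean over each list of cell markers (right). AANAT and TH are at 0.55 and 0.35 in library 2, where the rod, cone and amacrine lists are at 0.13, -0.09 and -0.05; the pigment epithelium list runs from 0.44 in library 1 to -0.39 in library 3.

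Lists of markers of photoreceptors and amacrine cells moved less between libraries than AANAT and TH did, though an average over several genes varies less than 1 gene by construction. The summed level of the 10 measured rod markers was 29532, 42629 and 36931 FPKM in libraries 1, 2 and 3, and that of the 9 cone markers 1667, 1594 and 1639 FPKM. The comparisons with marker lists that follow use log2(FPKM + 1), which compresses low genes. Relative to the mean level of the rod markers on that scale, AANAT was 0.77 higher in library 2 than in library 1, against 0.98 without that reference. Relative to the cone markers the difference was 1.07, and 0.80 without PDE6H, which had 466, 94.4 and 313 FPKM and was singled out after its values were seen. The 8 measured of 11 amacrine markers summed to 579, 695 and 601 FPKM. Relative to their mean log2(FPKM + 1), TH was 0.67 higher in library 2 than in library 1, against 0.69 without that reference. With no pseudocount and no reference the TH difference was 0.84. No marker on these lists was at 0. The part that cell mix has in these differences was not tested beyond these values.

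Noradrenergic nerves hold TH, DDC and SLC18A2 too, and their defining markers were low. Of 4 measured of 6 noradrenergic markers, DBH, which makes noradrenaline from dopamine, had 0.435, 0.751 and 0.509 FPKM from 37, 68 and 58 reads. The noradrenaline transporter SLC6A2 had 3, 0 and 6 reads, and the transcription factor PHOX2A had at most 0.181 FPKM in any library. The list sum of 85.5, 93.5 and 81.8 FPKM came almost wholly from CHGA, a secretory granule protein of many neurons. TH exceeded DBH by 7.72-fold, 7.996-fold and 8.76-fold in libraries 1, 2 and 3, a log2 ratio of 3.03 ± 0.095 (SD, n = 3), or 3.03 ± 0.17 with the length trend removed. With the length trend kept, 28 of 9596 other detected genes had as even a ratio to TH. That count takes no account of counting error, which is large for DBH at 37 to 68 reads a library. The pair of TH and DBH was chosen after its values were seen, and the part of nerve RNA in the level of TH was not tested.

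Platelets and mast cells also use SLC18A2. Of 5 measured of 8 markers, CPA3 was at 0 in all 3 libraries and PF4 in libraries 1 and 2, and the list summed to 10.6, 8.98 and 11.5 FPKM, mostly from KIT at 6.99 FPKM ± 1.25 and ITGA2B at 3.07 FPKM ± 0.829 (SD, n = 3). HDC, which makes histamine, had 0.129, 0.243 and 0.456 FPKM from 11, 22 and 52 reads, in the same order over libraries as SLC18A2. KIT and ITGA2B did not share that order, as KIT was lowest in library 2 and ITGA2B was highest in library 1. The part of such cells in the level of SLC18A2 was not tested. The 9 pigment epithelium and melanocyte markers summed to 49.1, 29.0 and 15.3 FPKM in libraries 1, 2 and 3. TTR alone gave 25.8, 15.6 and 5.36 FPKM of these sums. Of the 9 markers 7 were highest in library 1, while TYRP1 and TYR were highest in library 3. The order of the sums is shared by none of the 5 genes. TYR, which oxidises tyrosine to DOPA in pigment cells, was at 0 in libraries 1 and 2 and at 0.00992 FPKM in library 3.

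The genes whose pattern over the 3 libraries lay nearest to each member were looked up among 9598 other detected genes, by the distance of their deviations of log2(FPKM + 1). Nearest to AANAT were MIR29B-2, MIR935 and FHIT, at distances of 0.055, 0.077 and 0.080. Only 4 genes lay within 0.1 of AANAT. The microRNA genes are listed at 81 and 91 bases, shorter than the fragments of about 200 bases, and had at most 45 and 19 reads in any library. Nearest to TH were ZNF394, IMMT and LAPTM5, at distances of 0.020, 0.028 and 0.031, and 37 genes lay within 0.1.

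DDC and SLC18A2 had many neighbours, as their deviations of log2(FPKM + 1) were small. That scale compresses low genes, so a near distance to DDC does not mean a like fold. DDC was 1.54-fold higher in library 2 than in library 3, where its neighbour FLOT1 had 90.2 and 71.4 FPKM. LMCD1, NADSYN1 and FLOT1 lay nearest to DDC and 596 genes lay within 0.1 of it. For SLC18A2 the nearest of all 9598 genes was SLC29A4, the plasma membrane monoamine transporter, at a distance of 0.0026, followed by NBR1 and ARNT2. SLC29A4 exceeded SLC18A2 by 3.89-fold, 3.78-fold and 3.60-fold in libraries 1, 2 and 3, a log2 ratio of 1.91 ± 0.057 (SD, n = 3). By the SD of that ratio, 78 of 9595 other detected genes, or 0.813%, were at least as even against SLC18A2. In all 242 genes lay within 0.1 of SLC18A2.

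The wider path was followed through 8 lists of genes, in which 41 of 50 genes other than the 5 were measured. Of these 34 were detected, or 82.9% against 70.7% of all listed genes, and their median was 15.4 FPKM against 5.67 FPKM. Neither tryptophan hydroxylase, TPH1 or TPH2, which start serotonin synthesis, was analysed here. The step after dopamine was low: DBH had 0.565 FPKM ± 0.165, and PNMT, which makes adrenaline, had 0.125 FPKM ± 0.0253 (SD, n = 3) from 5, 6 and 5 reads.

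TH and the tryptophan hydroxylases need tetrahydrobiopterin as a cofactor, and its genes were more abundant than TH. All 6 measured of 8 cofactor genes were detected, against 70.7% of all listed genes, with a list median of 24.8 FPKM. QDPR, which recycles the cofactor, had 57.7 FPKM ± 9.51, and SPR, which completes its synthesis, had 35.3 FPKM ± 7.41. PCBD1, which also serves recycling, had 34.2 FPKM ± 6.47 and GCHFR, the feedback regulator of the first enzyme, 14.2 FPKM ± 1.83 (SD, n = 3). PTS, the middle enzyme of synthesis, had 13.1, 6.98 and 4.85 FPKM in libraries 1, 2 and 3, with the largest fold between highest and lowest library in the list, 2.71. GCH1, the first enzyme, was not analysed here.

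Among the transporters SLC18A2 was the main vesicular form. It exceeded SLC18A1, the other vesicular monoamine transporter, by 26.5-fold, 13.8-fold and 15.9-fold in libraries 1, 2 and 3, where SLC18A1 had 6, 14 and 20 reads. SLC6A4, the serotonin transporter of the plasma membrane, had 2.44, 3.88 and 3.77 FPKM, above SLC18A2 in each library though the ranges overlapped. SLC29A4 was the highest of the 5 measured of 7 transporters at 10.3 FPKM ± 1.74 (SD, n = 3). The dopamine transporter SLC6A3 was not analysed here.

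Among the enzymes that break monoamines down, the oxidases MAOA and MAOB were low, at 1.21 FPKM ± 0.335 and 1.11 FPKM ± 0.2503 (SD, n = 3). The sulphotransferase SULT1A1 had 14.1, 26.3 and 17.1 FPKM, lowest in library 1 and highest in library 2 as AANAT and TH were. Its gene model has 942 bases, close to the length of AANAT. That order was not particular to SULT1A1, as MAOB, ALDH2 and ALDH1A1 shared it. Of the 7 genes on this list 6 were highest in library 2, against 29.0% of detected genes. ALDH2, AKR1B1 and ALDH1A1, which act on the aldehydes that the oxidases leave, had means of 26.6, 12.6 and 6.19 FPKM.

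**Figure D5:**
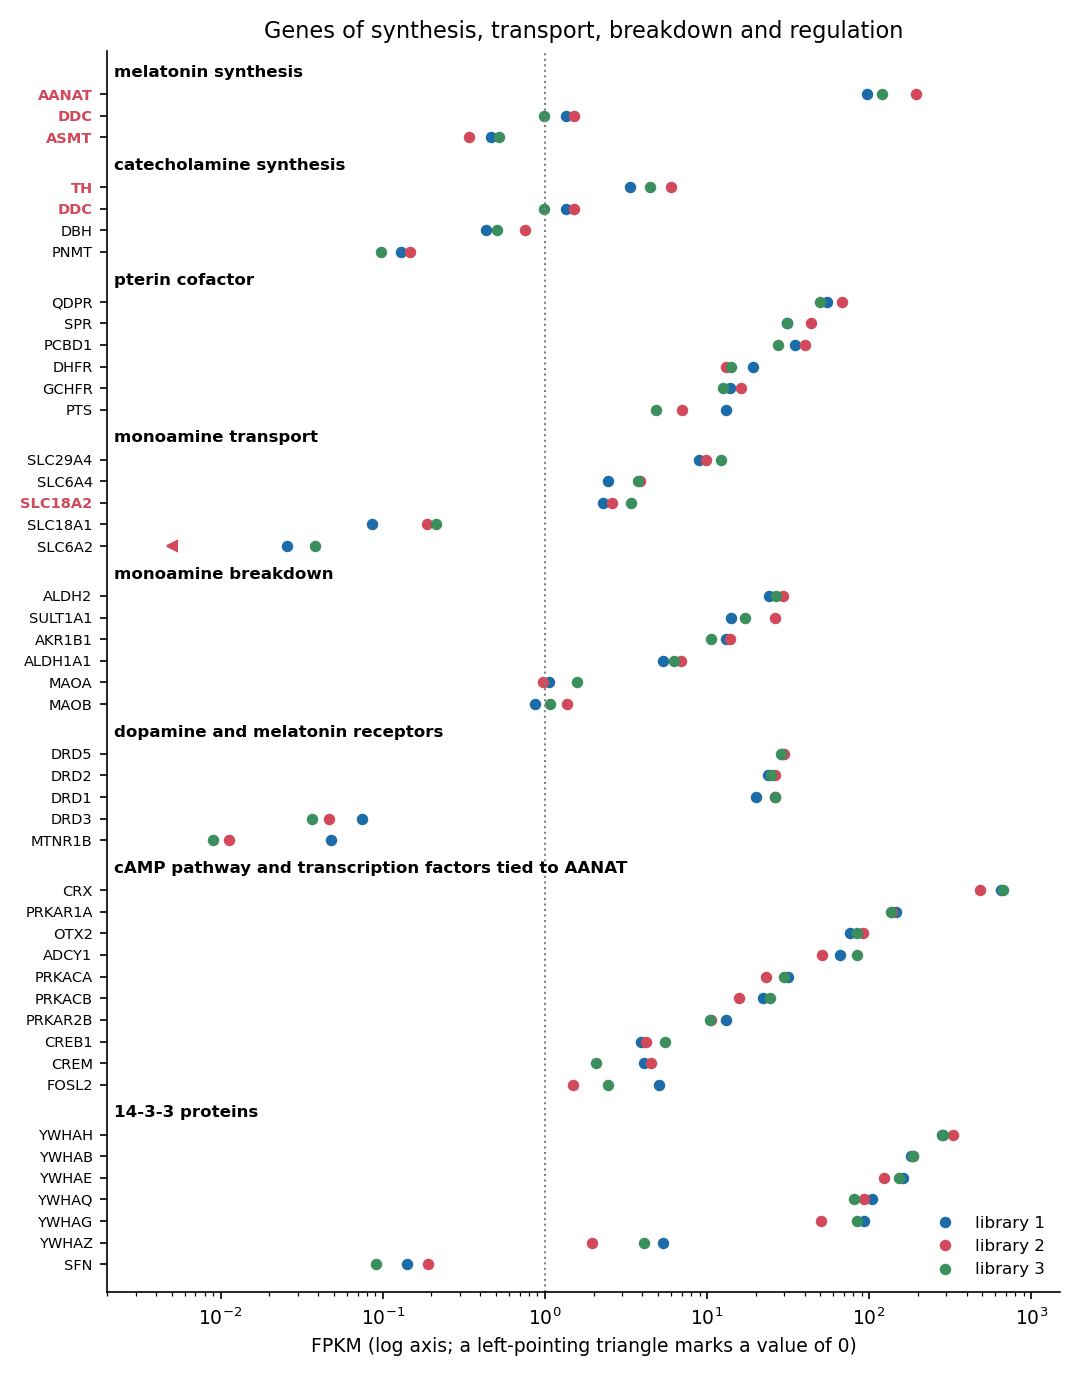
FPKM (log axis) of the reported genes of the 8 lists in libraries 1, 2 and 3, ordered by mean within each list; the 5 genes of this account are in red and the dotted line marks 1 FPKM. Within each library the cofactor genes lie above TH. ASMT, DBH, PNMT, SLC18A1, SLC6A2, DRD3, MTNR1B and SFN lie below 1 FPKM in all 3.

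Genes tied to the control of AANAT were nearly all detected. From work in rodents and sheep, cAMP raises AANAT activity in the pineal gland, the homeodomain factors CRX and OTX2 act on the gene, and 14-3-3 proteins bind and protect the phosphorylated enzyme. All 10 genes of the cAMP and transcription factor list were detected, against 70.7% of all listed genes, with a median of 24.5 FPKM. CRX had 650, 483 and 668 FPKM in libraries 1, 2 and 3, and thus was lowest in library 2, where AANAT was highest. OTX2 had 76.2, 91.2 and 83.8 FPKM, highest in library 2. ADCY1, an adenylyl cyclase, had 65.9, 51.4 and 83.9 FPKM, and the catalytic kinase subunits PRKACA and PRKACB had 28.2 FPKM ± 4.59 and 20.8 FPKM ± 4.53 (SD, n = 3). ADCY1, PRKACA and PRKACB were each lowest in library 2, whereas PRKAR1A, PRKAR2B and CREM were lowest in library 3 and CREB1 in library 1.

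The regulatory kinase subunit PRKAR1A had 140 FPKM ± 5.01 and PRKAR2B 11.4 FPKM ± 1.53. The factors CREB1, CREM and FOSL2 were lower, with means of 4.55, 3.56 and 3.00 FPKM, and FOSL2 had 5.04, 1.48 and 2.46 FPKM in libraries 1, 2 and 3. Of the 7 14-3-3 genes 6 were detected, against 70.7% of all listed genes. YWHAH led at 300.1 FPKM ± 26.7, followed by YWHAB at 185 FPKM ± 3.58 and YWHAE at 146 FPKM ± 20.1 (SD, n = 3). YWHAQ and YWHAG had 92.6 FPKM ± 11.6 and 75.9 FPKM ± 22.7, while YWHAZ, the form best known as a partner of AANAT, had 5.35, 1.95 and 4.09 FPKM on a gene model of 841 bases. SFN, an epithelial form, had 0.141 FPKM ± 0.0499.

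Receptors for dopamine were well above TH, while the measured melatonin receptor was near the floor. DRD5, DRD2 and DRD1 had 29.0 FPKM ± 0.647, 25.0 FPKM ± 1.16 and 24.2 FPKM ± 3.55 (SD, n = 3), each above TH in every library by 4.37-fold or more, whereas DRD3, another dopamine receptor, had 3, 2 and 2 reads. MTNR1B, which binds melatonin, had 4, 1 and 1 reads; both were at or near the floor of 3 reads. DRD4, MTNR1A and the related GPR50 were not analysed here.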

How the data were processed

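The authors deposited FPKM per gene and library, per the file headers, with a gene length for each of 13574 symbols. CASAVA 1.8.1, GSNAP (an aligner) and HTSeq (a read counter) are named in the submitters' processing notes. The sources used here do not give their settings, the build, the annotation or the use of strand. A gene model that lacks part of a transcript changes that gene's FPKM.

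FPKM times length was a whole multiple of 1 read, within 0.1, in 100% of values up to 2000 reads, which gave the reads per gene. Means, SDs and log2 ratios of FPKM (with no pseudocount unless stated) were computed with Python 3.11.15, pandas 2.3.3 and scipy 1.17.1. Intervals are exact (Clopper-Pearson for ratios of reads, Poisson for single values), at 95%, and cover counting error only, as does the floor of 3 reads. Read recovery, intervals, the pattern search and removal of the length trend (20 length bins) were tested on simulated data. Columns were matched to libraries through their replicate numbers.

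Named genes were the 5 members, the measured genes of the 8 lists (1 of them is not reported here, though it counts in list totals), and the 3 nearest in pattern to each member that is detected (mean of 1 FPKM or more). Members and lists were chosen with earlier results of these data known. All 5 symbols matched ARS-UCD2.0, where none overlaps another gene.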

Additional observations from a re-analysis of the deposited data

How the results depend on the processing

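The mean levels of the 5 genes moved by less than 1 SD with scaling by the median ratio or to equal sums, and so did the ratios between genes with a pseudocount of 0.1 FPKM. With a pseudocount of 1 FPKM, which compresses low genes by construction, the log2 ratio fell from 8.24 to 6.52 for AANAT against ASMT, from 4.88 to 4.59 for AANAT against TH, from 1.82 to 1.27 for TH against DDC and from 1.54 to 0.66 for DDC against ASMT. No ratio changed sign under these settings or without any 1 library. Of 60 differences of single genes between libraries under another scaling, with the length trend removed or with that pseudocount, 53 stayed within their counting interval, and the 7 that left it were all of AANAT, whose intervals are narrow. The count of 4 genes at least 1.5-fold apart between libraries became 2 with that pseudocount, and ranged from 0 to 3 when 1 library was left out, an alternative chosen after the data were seen. It was 5 with scaling by the median ratio. The share of all genes was not computed under these settings, so these counts are not set against a background. Leaving out 1 library gave 109 to 157 FPKM for AANAT, 0.404 to 0.493 FPKM for ASMT and 3.91 to 5.23 FPKM for TH. Of the 46 genes measured on the 8 lists, 38 reached a mean of 1 FPKM, 43 reached 0.1 FPKM and 26 reached 10 FPKM.

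No paired analysis was possible because the 3 libraries form 1 group. The planned search of promoters for motifs was not run, since no promoter sequence was used here. Depth limits ASMT most: with 24 to 46 reads a library, the intervals of its ratios between libraries ran from 0.383 to 1.81.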
